A study of Drosophila melanogaster with 10 samples.

Results

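The genes described are 10 voltage-gated ion channel genes of Drosophila melanogaster, para, cac, Sh, Shab, Shal, Shaw, eag, sei, slo and Ih. They were taken by their symbols from a table of read counts for 16727 genes, and all 10 were found there. The counts came from 10 RNA sequencing libraries of larval brain, each made from polyA RNA of 25 pooled brains of larvae at the wandering stage, so that a replicate is a pool and not an animal. The study compared larvae labelled yw, given as 200xWT in the design text and so with 200 wild-type histone gene repeats, with larvae labelled 12xWT, with 12 such repeats. There were 2 female and 2 male libraries of yw and 3 female and 3 male libraries of 12xWT. The labels gave no treatment and, for age, the larval stage only. In the published system of this name a transgene supplies the repeats in place of the native histone locus, which the labels do not spell out. With 1 genotype on each side, the number of repeats and the rest of the genetic background cannot be told apart.

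Voltage-gated channels are membrane proteins that open when the voltage across the membrane changes and let through sodium, calcium or potassium ions. In neurons the sodium channel carries the upstroke of the action potential, calcium channels at the synapse release transmitter, and potassium channels repolarize the cell and set how often it fires. In Drosophila most pore types are encoded by a single gene with many splice forms, and several of these genes were found through mutants that are paralysed or shake under ether. Gene counts sum over all splice forms, so changes in isoform use were not measured.

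The libraries held 52020154 to 79924240 counted read pairs, and the channel genes together took 0.147% to 0.180% of them. The lowest count of any of the 10 genes in any library was 2342, for sei. The eye pigment gene w (white), a common transgene marker, ranged from 0.0890 to 0.175 counts per 1000000 counts (CPM) over the yw libraries and from 224 to 299 CPM over the 12xWT libraries, which separated the genotypes as labelled. The sex labels were less clean. Summed over 7 Y-linked genes, CPM was 0 and 0.0356 for the yw female libraries and only 0.105 and 0.260 for the yw male libraries. It was 4.59, 17.6 and 4.30 for the 12xWT female libraries and 19.3 to 22.4 for the 12xWT male libraries. The CPM of the male-specific RNA roX2 was 0.0769 and 2.88 (yw female), 7.34, 15.1 and 9.29 (12xWT female), 65.3 and 67.8 (yw male) and 35.7 to 48.0 (12xWT male). The CPM of roX1, the other RNA of that pair, was 308 to 446 (yw female), 585 to 958 (12xWT female), 2953 to 3139 (yw male) and 1949 to 2535 (12xWT male). The CPM of msl-2, also checked against the sex labels, was 60.8 and 66.6 (yw female) and 157 and 152 (yw male). In 12xWT it was 69.9, 84.8 and 72.3 (female) and 120 to 139 (male), so the female libraries lay below all male libraries. In Y-linked and roX RNA the 12xWT female libraries go partly against their label. The yw male libraries have little Y-linked RNA although their roX levels are the highest, and the roX levels of the 12xWT male libraries lie below those of yw males. Genotype is also given within males and sex within yw, where the 12xWT female libraries are not compared, but these comparisons rest on the other libraries named here.

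The 10 genes are long and have many exons. Their median exonic length was 10.73 kb and their median number of distinct exons 25, against 1.51 kb and 3 over all genes of the table. On dm6, para lies on X from 16455027 to 16533096 on the minus strand, Sh on X from 17924307 to 18063245 on the minus strand, cac on X from 11931280 to 11985087 on the minus strand, and eag on X from 14955477 to 15009989 on the plus strand. The 6 autosomal genes are Shab on 3L from 2895017 to 2959579, Shal on 3L from 19566851 to 19584568, Shaw on 2L from 3718185 to 3729145, slo on 3R from 24662491 to 24711595, sei on 2R from 24047411 to 24053035 and Ih on 2R from 14276130 to 14300095, all on the plus strand except Shal. The longest was Sh, with a span of 138.9 kb, and the shortest sei, with 5.6 kb. The annotation lists 60 transcripts for para, 23 for slo, 18 for cac and 17 for Sh, but 3 each for Shal and sei. Exons of sei share 478 bp with the opposite-strand genes gammaSnap1 and ppk29, which is 14.6% of its exonic length. Since counting took no account of strand, per the file headers, read pairs in that stretch cannot be assigned to sei with certainty. The other 9 genes share no exonic base with another gene.

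Per kb of exon, cac and Sh were the most abundant of the 10 transcripts and slo and eag the least. As a level in CPM per kb of exon (RPKM), averaged over the 10 libraries, cac stood at 27.2, Sh at 24.5, Shaw at 18.0, para at 17.2, Shal at 16.7, Ih at 15.2, sei at 13.5, Shab at 10.2, slo at 6.55 and eag at 5.09. The median over the 11146 genes tested was 9.82 RPKM, so slo and eag were below it and the other 8 above it. Neighbours in this order were mostly close. The ranges over libraries overlapped between cac and Sh, between Shaw and para, between para and Shal, between Shal and Ih, between Ih and sei, and between slo and eag. They did not overlap between Sh and Shaw, between sei and Shab, or between Shab and slo. In each of the 10 libraries Shal was above Ih, Ih above sei and slo above eag, whereas cac was above Sh in 8 and Shaw above para in 6. Within the groups the place of para moved most. Its rank among the 10 was 3 in yw females and yw males, 6 in 12xWT females and 7 in 12xWT males.

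**Figure D1:**
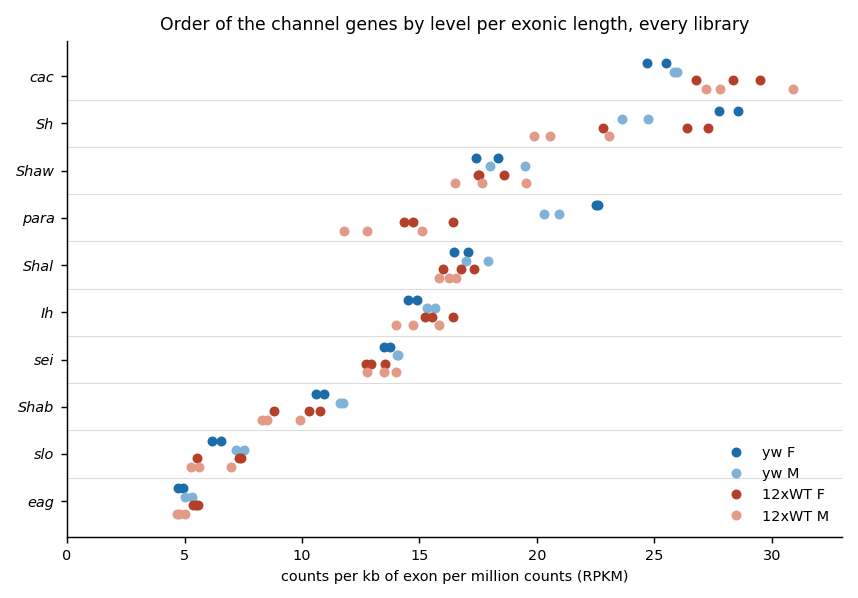
Level of each channel gene in RPKM (CPM per kb of exon, linear axis), with 1 point per library coloured by genotype and sex and the genes ordered by their mean over the 10 libraries. The yw points of para lie to the right of all its 12xWT points, while the points of most other genes are mixed.

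Genotype was compared with edgeR's quasi-likelihood test on the counts of all 10 libraries with sex as a covariate, and a gene was called changed at a Benjamini-Hochberg adjusted p under 0.05 over the 11146 genes tested. In 12xWT brains the sodium channel gene para fell to 0.646 times its yw level, the delayed rectifier gene Shab and the A-type potassium channel gene Sh fell by 17.4% and 12.2%, and the calcium channel gene cac rose by 9.87%. The other 6 genes, Shal, Shaw, eag, sei, slo and Ih, were not called. So 4 of the 10 passed the test, 1 higher and 3 lower. Over all genes tested 33.4% were called, 17% higher and 16.4% lower, so a count of 4 in 10 is near the background. The median log2 fold change of the 10 genes was -0.08, beside 0.0005 for all genes tested. Since whole brains were sequenced, fewer cells that express a gene and less RNA of it per cell cannot be told apart, here and in all that follows. The labels do not say that libraries of a group came from separate cultures, so the p-values measure the spread between these libraries.

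para encodes the pore-forming subunit of the voltage-gated sodium channel, which carries the action potential. Its CPM was 367 and 369 for the yw female libraries and 331 and 342 for the yw male libraries. For 12xWT it was 240.3, 267 and 234 (female libraries) and 247, 192 and 208 (male libraries). The lowest yw library was above the highest 12xWT library, and the genotypes did not overlap within either sex. Of all genes tested, 24% likewise had no overlap between the genotypes, 42.7% had none within females and 51.1% had none within males. The difference was -0.63 as a log2 fold change (SE 0.064, 95% interval -0.77 to -0.49; edgeR adjusted p = 6.88e-05), and its size was at percentile 87.2 of the absolute changes of all genes tested. The group means were 352 ± 18.9 CPM (SD, n = 4) in yw and 231 ± 27.3 CPM (SD, n = 6) in 12xWT. para was called in each of the 18 alternative settings and leave-out fits, with a log2 fold change between -0.68 and -0.55.

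cac encodes the pore-forming alpha1 subunit of the presynaptic calcium channel, which triggers transmitter release at fly synapses. Its CPM was 294 and 304 (yw female libraries) and 309 and 308 (yw male libraries). For 12xWT it was 319, 351 and 338 (female libraries) and 368, 331 and 324 (male libraries). Like 24% of all genes tested, cac had no overlap between the genotypes. All 6 libraries of 12xWT were above all 4 of yw, although the lowest 12xWT library and the highest yw library were close. This gave a log2 fold change of 0.14 (SE 0.040, 95% interval 0.05 to 0.22; edgeR adjusted p = 0.0231). The call was lost when any of the 4 yw libraries was left out (adjusted p 0.0511 to 0.0664), with the fold change between 0.13 and 0.14.

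The ratio of counts of para to counts of cac in the same library does not depend on how libraries are scaled. It was 1.16 ± 0.085 (SD, n = 4; 1.07 to 1.25) in yw and 0.683 ± 0.069 (SD, n = 6; 0.580 to 0.761) in 12xWT. The pair joins the gene with the largest fall and the only gene called higher. Each, like 24% of all genes tested, had no overlap between the genotypes, and the directions were opposite. The gap in their ratio therefore follows from those values and is no separate evidence. para had more counts than cac in each yw library and fewer in each 12xWT library. These counts are not corrected for exonic length, which is 16.31 kb for para and 11.92 kb for cac. Per kb of exon cac was above para throughout, at 24.7 to 30.9 RPKM beside 11.8 to 22.6 RPKM over all libraries. As a share of the counts of all 10 genes, para took 19.9% ± 0.79 (SD, n = 4) in yw and 14.4% ± 0.76 (SD, n = 6) in 12xWT, and cac took 17.1% ± 0.63 and 21.1% ± 1.23. The summed level of the 10 genes ranged from 1738 to 1798 CPM in yw and from 1468 to 1763 CPM in 12xWT, and these ranges overlapped.

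The Shaker family of potassium channels has 4 founding members in the fly, Sh, Shab, Shal and Shaw, of which Sh and Shal carry fast inactivating (A-type) currents and Shab carries a delayed rectifier current that repolarizes the cell. The CPM of Shab was 114.8 and 118 (yw female libraries) and 127 and 126 (yw male libraries). For 12xWT it was 111, 117 and 95.6 (female libraries) and 107, 89.8 and 92.0 (male libraries). The genotypes overlapped in females, through 12xWT female replicate 2, and were apart in males, as they were for 51.1% of all genes. The log2 fold change of Shab was -0.28 (SE 0.075, 95% interval -0.45 to -0.11; edgeR adjusted p = 0.0211). Without yw male replicate 1 or yw male replicate 2 the call was lost, with adjusted p of 0.0696 and 0.0732 and fold changes of -0.24 and -0.25.

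Sh encodes the A-type channel whose mutants gave the family its name. Its CPM was 507 and 492 (yw female libraries) and 439 and 419 (yw male libraries), and for 12xWT 405, 469 and 485 (female libraries) and 409.8, 353 and 365 (male libraries). Within each sex the 12xWT libraries were below the yw libraries, but 12xWT females overlapped yw males. Such non-overlap within a sex held for 42.7% of all genes in females and 51.1% in males. Neither contrast of Sh within a sex was called (edgeR adjusted p = 0.270 in females and 0.130 in males). The log2 fold change for genotype was -0.19 (SE 0.060, 95% interval -0.32 to -0.05; edgeR adjusted p = 0.0350). It was called in 9 of 18 alternatives. Leaving out any of the 4 yw libraries, 12xWT male replicate 2 or 12xWT male replicate 3 ended the call, with adjusted p of 0.0589 to 0.102.

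Shal encodes the A-type channel of dendrites and cell bodies, and Shaw a channel with little voltage sensitivity that contributes to resting conductance. Shal ranged from 75.9 to 82.4 CPM for yw and from 72.9 to 79.7 CPM for 12xWT, with a log2 fold change of -0.08 (SE 0.030; edgeR adjusted p = 0.0682). Shaw ranged from 86.9 to 97.5 CPM for yw and from 82.6 to 97.6 CPM for 12xWT, with -0.05 (SE 0.047; edgeR adjusted p = 0.397). For both genes the genotypes overlapped, and the 95% intervals were -0.14 to -0.01 for Shal and -0.16 to 0.05 for Shaw. Shal passed the test without yw female replicate 1 (edgeR adjusted p = 0.0484) or without 12xWT female replicate 2 (edgeR adjusted p = 0.0312).

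eag and sei belong to the ether-a-go-go family of potassium channels, sei being the fly counterpart of the ERG channels and known from mutants that seize when warmed. eag ranged from 50.2 to 56.3 CPM for yw and from 49.6 to 59.1 CPM for 12xWT over both sexes, with a log2 fold change of 0.02 (SE 0.051, 95% interval -0.09 to 0.13; edgeR adjusted p = 0.837). sei ranged from 44.2 to 46.2 CPM for yw and from 41.8 to 45.9 CPM for 12xWT, with -0.09 (SE 0.032, 95% interval -0.16 to -0.02; edgeR adjusted p = 0.0575). Neither was called, and the genotypes overlapped for both. sei passed the test without 12xWT female replicate 2 (edgeR adjusted p = 0.0460) or without 12xWT male replicate 2 (edgeR adjusted p = 0.0361).

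slo encodes the calcium-activated potassium channel of large conductance, and Ih the channel opened by hyperpolarization that carries a mixed cation current. The CPM of slo was 62.5 and 66.3 (yw female libraries), 73.0 and 76.5 (yw male libraries), 75.0, 74.1 and 55.9 (12xWT female libraries) and 70.8, 53.6 and 57.1 (12xWT male libraries). Among the 12xWT libraries, female replicate 3 and male replicates 2 and 3 were low, and the genotypes overlapped. Its coefficient of variation was 15.3% over the 6 libraries of 12xWT, the highest of the 10 genes in that genotype, beside 11.8% for para. Its log2 fold change was -0.13 (SE 0.119, 95% interval -0.41 to 0.14; edgeR adjusted p = 0.422), so a change of the size seen for Shab lay inside the interval. Ih ranged from 185 to 199 CPM for yw and from 178 to 209 CPM for 12xWT. Its log2 fold change of -0.003 (SE 0.043, 95% interval -0.10 to 0.09; edgeR adjusted p = 0.960) went with a coefficient of variation of 5.66% over the 12xWT libraries.

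**Figure D2:**
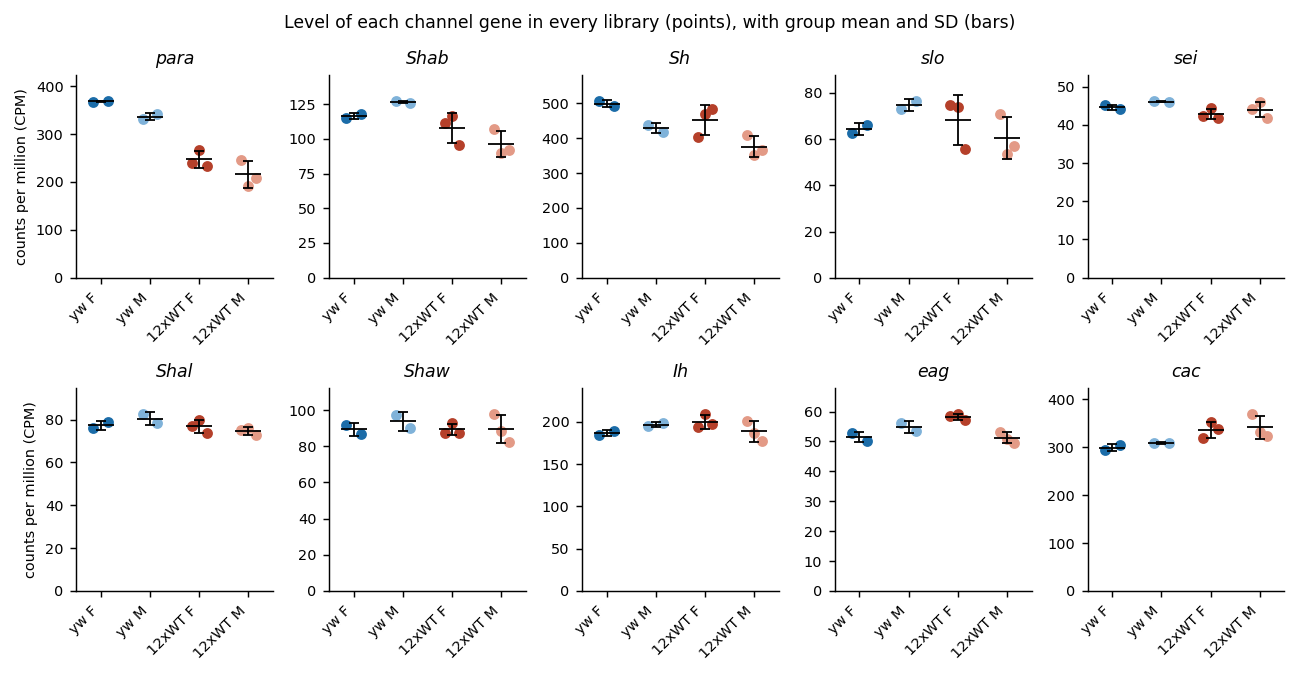
Level of each channel gene in CPM (linear axes from 0, a separate axis per gene), with 1 point per library in 4 groups of genotype and sex (F female, M male), the group mean as a bar and the SD as whiskers (n = 2 for yw, n = 3 for 12xWT). The 12xWT points of para lie below all its yw points and those of cac above all its yw points, while for the other 8 genes the points of the genotypes overlap over both sexes.

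Within females and within males the direction for para was the same. The log2 fold change of para was -0.60 in females (SE 0.095, 95% interval -0.82 to -0.38; edgeR adjusted p = 0.00417) and -0.66 in males (SE 0.095, 95% interval -0.88 to -0.44; edgeR adjusted p = 0.00197). In females 2 of the 10 genes were called, para lower and eag higher, where 12.6% of all genes were called (7.04% higher, 5.57% lower). In males 2 were called, para and Shab, both lower, where 21% of all genes were called (11.1% higher, 9.91% lower). Shab fell by 0.41 on the log2 scale in males (SE 0.087; edgeR adjusted p = 0.0112), and in females its fold change was -0.14 (SE 0.088; edgeR adjusted p = 0.363). The male call was lost without yw male replicate 1 or yw male replicate 2, with adjusted p of 0.0706 and 0.0786. In males Sh was at -0.21 (edgeR adjusted p = 0.130) and passed without 12xWT female replicate 1 or 12xWT male replicate 1 (adjusted p 0.0374 and 0.0425). slo was at -0.32 in males (edgeR adjusted p = 0.162), and passed without 12xWT male replicate 1 (adjusted p 0.0346) and with DESeq2 (adjusted p 0.0437). cac was at 0.15 in females (edgeR adjusted p = 0.144) and 0.13 in males (edgeR adjusted p = 0.161), so at these settings it passed the test with both sexes together and in neither alone, while with libraries scaled to neuron marker counts it passed in both (adjusted p 0.0279 and 0.0142).

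The call for eag in females was marginal. In females the CPM of eag was 52.7 and 50.2 for yw and 58.5, 59.1 and 57.0 for 12xWT, without overlap. In males it was 56.3 and 53.4 for yw and 53.3, 50.7 and 49.6 for 12xWT, also without overlap but in the other direction and with almost no gap. Non-overlap of this kind held for 42.7% of all genes in females and 51.1% in males. As a log2 fold change this was 0.15 in females (SE 0.045, 95% interval 0.05 to 0.25; edgeR adjusted p = 0.0485) and -0.12 in males (SE 0.045, 95% interval -0.22 to -0.02; edgeR adjusted p = 0.0842). The female call held in 4 of 19 alternatives. Leaving out any of the 5 female libraries ended it, with adjusted p of 0.0782 to 0.298, and so did leaving out yw male replicate 1, yw male replicate 2 or 12xWT male replicate 2. In males eag passed the test without 12xWT male replicate 1 (adjusted p 0.0414).

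Whether the genotype difference itself differed between the sexes was tested as an interaction, male minus female. None of the 10 genes was called by edgeR or by DESeq2, and 1, eag, had an unadjusted p under 0.05. Over all genes 0% were called by edgeR, with 456 at an unadjusted p under 0.05 and 11 called by DESeq2. The interaction of eag was -0.27 on the log2 scale (SE 0.064, 95% interval -0.41 to -0.13; unadjusted p = 0.00134 in edgeR, edgeR adjusted p = 0.679). That of slo was -0.38 (SE 0.207, 95% interval -0.87 to 0.10), that of Shab -0.27 (SE 0.125, 95% interval -0.56 to 0.01) and that of para -0.06 (SE 0.136, 95% interval -0.37 to 0.25). All 10 estimates were below 0, but the genes share the same 10 libraries and are not independent of each other.

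**Figure D3:**
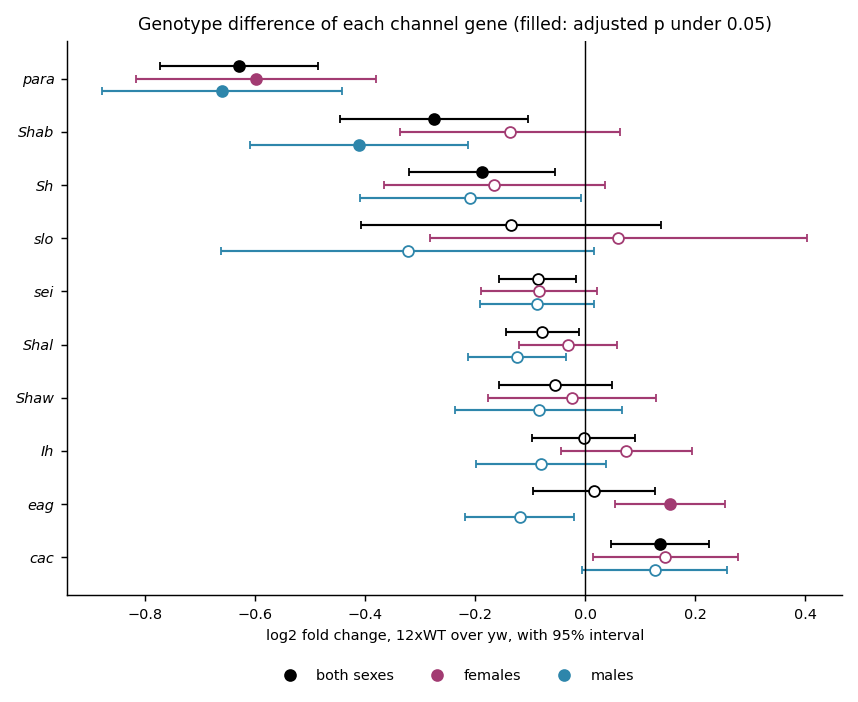
Log2 fold change of each channel gene, 12xWT over yw, for both sexes together, for females and for males, as points with 95% intervals from edgeR's fit, filled where the adjusted p was under 0.05. para lies left of 0 in each comparison, cac right of 0 with its male interval reaching 0, and eag on opposite sides in females and males.

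Sex was compared in the same way, male over female, with genotype as a covariate. None of the 10 genes was called by edgeR, against 1.68% of all genes, and 2, Sh and para, had an unadjusted p under 0.05. DESeq2 called 1, Sh, lower in males. Sh and para are X-linked, as are cac and eag. Of the 1886 X-linked genes tested 8.43% were called, and of the 9252 autosomal genes 0.303%. The median log2 fold change was -0.05 over X-linked genes and 0.005 over autosomal genes.

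Sh had the largest sex difference of the 10 genes, with a mean of 471 ± 39.8 CPM (SD, n = 5) in females and 397 ± 36.6 CPM (SD, n = 5) in males. Within yw both female libraries were above both male libraries. In 12xWT the female library at 405 CPM lay below the male library at 409.8 CPM, so those sexes overlapped. Within yw the sexes were also apart, in either direction, for para, Shab, eag, sei, slo, cac and Ih, and for 39.4% of all genes. Between the sexes Sh had a log2 fold change of -0.25 (SE 0.059, 95% interval -0.38 to -0.12; edgeR adjusted p = 0.0750, DESeq2 adjusted p = 0.00253). Without 12xWT female replicate 1 or without 12xWT male replicate 1 it passed edgeR's test, with adjusted p of 0.0345 and 0.0418. The fold change was -0.22 within yw (SE 0.098; edgeR adjusted p = 0.567) and -0.27 within 12xWT (SE 0.080; edgeR adjusted p = 0.430).

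para stood at -0.17 (SE 0.064, 95% interval -0.31 to -0.03; edgeR adjusted p = 0.345), and without 12xWT male replicate 1 it was at -0.23 with an adjusted p of 0.0460. The other X-linked channel genes, cac at 0.03 and eag at -0.07, and the 6 autosomal ones, between -0.05 and 0.04, had intervals that included 0. Within yw no channel gene was called by edgeR or DESeq2 fitted on all 10 libraries, with 1, Sh, at an unadjusted p under 0.05, where 0.807% of all genes were called. Fitted on the 4 yw libraries alone, edgeR called Sh at -0.22 (adjusted p 0.0384) and slo at 0.22 (adjusted p 0.0441). Within 12xWT none was called by either tool, with 2, eag and Sh, at an unadjusted p under 0.05, where 0.0538% of all genes were called. eag was lower in all 3 of the 12xWT male libraries than in all 3 of the female ones, at -0.18 (SE 0.040; edgeR adjusted p = 0.202), and its fold change within yw was 0.09 (SE 0.049; edgeR adjusted p = 0.713). Over all genes 9.99% had no overlap between the sexes in 12xWT and 39.4% in yw.

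**Figure D4:**
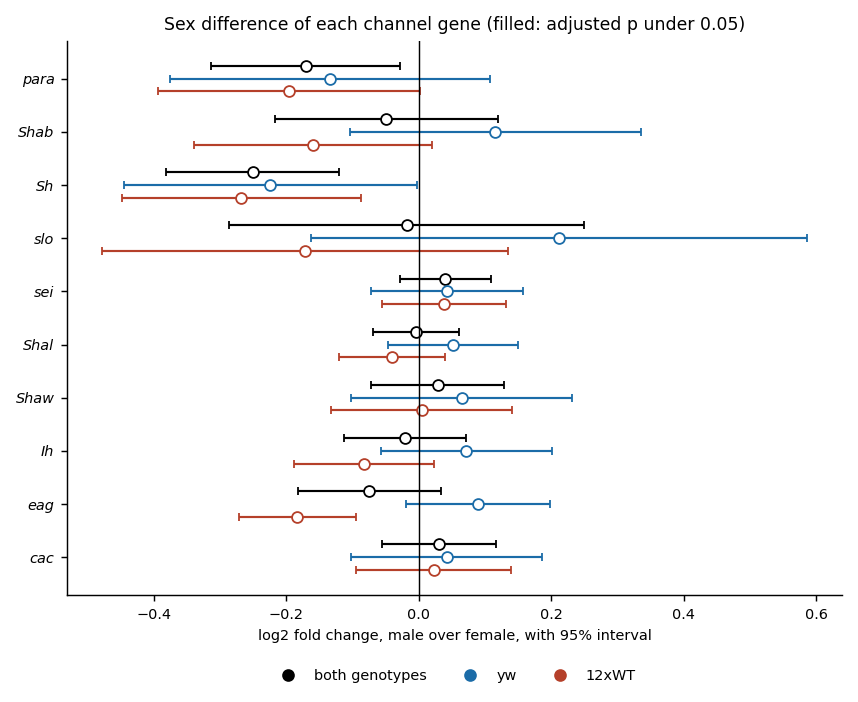
Log2 fold change of each channel gene, male over female, for both genotypes together, for yw and for 12xWT, as points with 95% intervals from edgeR's fit. No point is filled, since none had an adjusted p under 0.05, and Sh lies furthest left of 0 in the comparison over both genotypes.

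Auxiliary subunits and interacting proteins of these channels formed a list of 15 genes, of which 0 were called higher and 2 lower between the genotypes, with a median log2 fold change of -0.05. With both sexes together, the counts of this list and of those that follow stand beside the 33.4% of all genes called, 17% higher and 16.4% lower. Within females 1 of the 15 was called higher, tipE, and 1 lower, unc79, where 12.6% of all genes were called (7.04% higher, 5.57% lower). Within males 0 were higher and 4 lower, Teh1, unc79, Slob and unc80, where 21% of all genes were called (11.1% higher, 9.91% lower). With both sexes together the genes called were Teh1 and unc79. Teh1 encodes a relative of TipE, the auxiliary subunit of the para sodium channel. It ranged from 20.6 to 23.3 CPM for yw and from 16.2 to 20.4 CPM for 12xWT without overlap, a log2 fold change of -0.25 (SE 0.062; edgeR adjusted p = 0.00865). Such non-overlap between the genotypes held for 24% of all genes tested. tipE itself ranged from 35.2 to 40.4 CPM for yw and from 39.7 to 42.8 CPM for 12xWT, at 0.10 (SE 0.038; edgeR adjusted p = 0.0518), and was not called with both sexes together, while in females it was called at 0.17 (SE 0.047; edgeR adjusted p = 0.0323). unc79, which encodes a large protein of the sodium leak channel complex, ranged from 155 to 161 CPM for yw and from 110.2 to 128 CPM for 12xWT, at -0.42 (SE 0.035; edgeR adjusted p = 3.90e-06).

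Direct partners of Sh, cac and slo were not called with both sexes together. Hk, the cytoplasmic beta subunit of the Sh channel, was at 0.03 on the log2 scale (SE 0.061; edgeR adjusted p = 0.698), and qvr, a membrane-anchored protein that acts on the Sh channel, was at -0.05 (SE 0.051; edgeR adjusted p = 0.484). Ca-beta and stj, the beta and alpha2delta subunits of calcium channels, were at -0.009 and 0.03 (edgeR adjusted p = 0.860 and 0.643) while cac was called higher. Slob, which binds the slo channel, was at -0.32 (SE 0.114; edgeR adjusted p = 0.0591). In males the CPM of Slob was 25.1 and 25.3 for yw and 18.7, 16.0 and 16.0 for 12xWT, and in females 19.7 and 18.7 for yw and 20.1, 20.7 and 16.6 for 12xWT, so its genotypes were apart in males and overlapped in females. For 51.1% of all genes the genotypes were apart in males in this way. The male difference of Slob was called, at -0.59 (SE 0.090; edgeR adjusted p = 0.00124).

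Of 9 other pore-forming subunits 1 was called higher and 3 lower, with a median of -0.05. Elk, another member of the ether-a-go-go family, ranged from 31.2 to 37.3 CPM for yw and from 40.9 to 46.5 CPM for 12xWT. Its genotypes did not overlap, as for 24% of all genes tested. The log2 fold change of Elk was 0.35 (SE 0.042; edgeR adjusted p = 8.20e-05). Its family members eag and sei were not called with both sexes together, while eag was called higher in females (edgeR adjusted p = 0.0485). KCNQ, an M-type potassium channel gene, was at -0.38 (SE 0.096; edgeR adjusted p = 0.0103), at a level of 4.44 to 7.71 CPM. NaCP60E, whose product is related to sodium channels, was at -0.16 (SE 0.042; edgeR adjusted p = 0.0148), and na, the pore of the sodium leak channel to which unc79 belongs, at -0.08 (SE 0.026; edgeR adjusted p = 0.0428). unc80, another protein of that complex, was at -0.22 (SE 0.113; edgeR adjusted p = 0.177), and in males at -0.43 (SE 0.124; edgeR adjusted p = 0.0463).

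Of 7 leak and inward rectifier potassium channels 1 was called higher and 1 lower, with a median of -0.04. Irk3 ranged from 8.71 to 9.96 CPM for yw and from 4.37 to 7.39 CPM for 12xWT, at -0.75 (SE 0.125; edgeR adjusted p = 0.00107), and Irk2 ranged from 4.93 to 7.19 CPM for yw and from 6.73 to 10.6 CPM for 12xWT, at 0.49 (SE 0.152; edgeR adjusted p = 0.0336). Of the 4 genes of the sodium potassium pump 1 was called higher and 2 lower, with a median of -0.07. The catalytic subunit Atpalpha was at -0.13 (SE 0.034; edgeR adjusted p = 0.0132), the beta subunit nrv2 at -0.13 (SE 0.031; edgeR adjusted p = 0.00603) and the beta subunit nrv1 at 0.30 (SE 0.099; edgeR adjusted p = 0.0442). Of 5 genes known to act on channel transcripts, 4 were tested, with a median of -0.05, and the RNA helicase gene mle was called lower, at -0.08 (SE 0.024; edgeR adjusted p = 0.0266). pum, a translational repressor known to act on para mRNA, was at -0.07 (edgeR adjusted p = 0.174), and the RNA editing gene Adar was at -0.03 (edgeR adjusted p = 0.428). No gene of these 5 lists was called between the sexes.

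**Figure D5:**
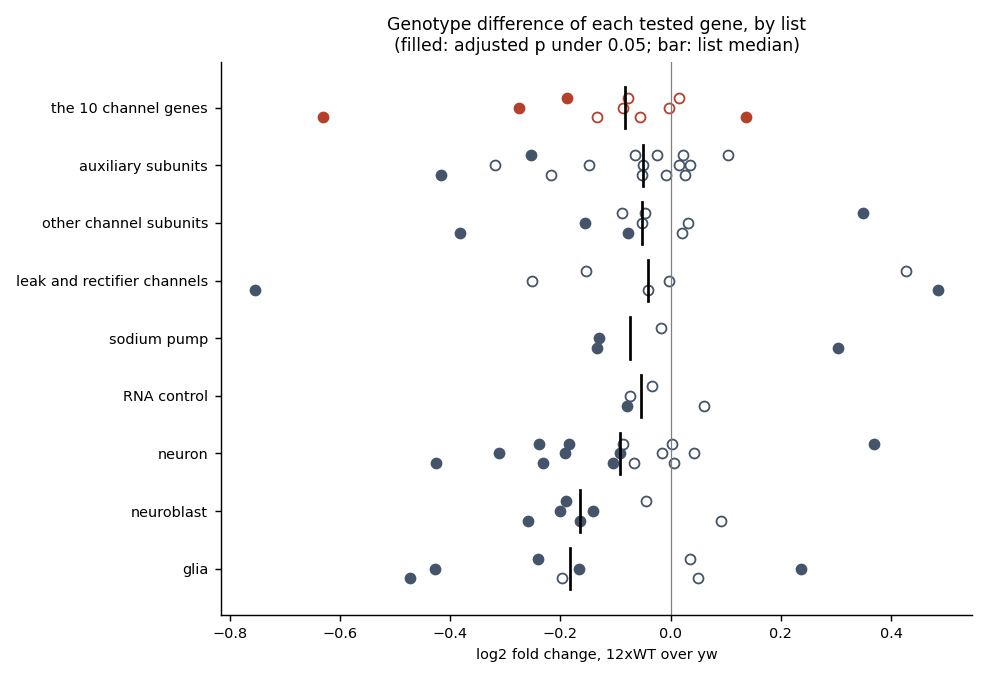
Log2 fold change, 12xWT over yw, of each tested gene of the 10 channel genes and of 8 other lists, with 1 point per gene, filled where edgeR's adjusted p was under 0.05, and the list median as a bar. para is the lowest point of its list at -0.63, and called genes stand on both sides of 0 in 6 of the 9 lists.

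Marker genes of neurons and of other cells were tested in the same comparison, where 33.4% of all genes were called. Of 15 neuron markers 1 was called higher and 8 lower between the genotypes, with a median of -0.09, and elav, the defining neuronal gene, was at -0.07 and not called. Their summed level was 10461 to 10883 CPM in yw and 9421 to 10807 CPM in 12xWT. Counted against neuron markers in place of all counts, para was at 33.1 ± 1.40 (SD, n = 4; 31.3 to 34.5) per 1000 neuron marker counts in yw and 22.6 ± 2.17 (SD, n = 6; 19.0 to 25.1) in 12xWT, still without overlap. Shab on that scale was at 11.4 ± 0.74 and 9.98 ± 0.99, Sh at 43.6 ± 3.26 and 40.4 ± 3.63, and cac at 28.5 ± 1.10 and 33.1 ± 1.52. With libraries scaled to neuron marker counts, para was at -0.55 (edgeR adjusted p = 8.34e-06) and cac at 0.21 (edgeR adjusted p = 0.000539), both called, while Shab at -0.19 (edgeR adjusted p = 0.0753) and Sh at -0.11 (edgeR adjusted p = 0.0770) were not.

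Of 7 neuroblast markers 0 were called higher and 5 lower, with a median of -0.16 (summed level 648 to 697 CPM in yw and 605 to 677 CPM in 12xWT), and of 8 glia markers 1 higher and 4 lower, with a median of -0.18 (793 to 971 CPM and 721 to 848 CPM). Of 8 ring gland markers 6 were called higher and 0 lower, with a median of 1.10 and summed levels of 79.5 to 222 CPM in yw and 225 to 498 CPM in 12xWT, and of 10 muscle markers 2 higher and 0 lower, with a median of 0.55 and sums of 102 to 111 CPM and 103 to 156 CPM. For 4 hemocyte markers, of which 1 was called higher, the median was 1.74 and the sums were 78.4 to 103 CPM and 89.0 to 113 CPM. Fat body markers summed to 7.84 to 201 CPM in yw and 39.4 to 508 CPM in 12xWT. None of the 6 was called, although all 6 fold changes were above 0, with a median of 1.67. None of 7 eye disc or 6 salivary gland markers was called, with medians of 0.12 and 0.23. No list summed to 0 in any library. The part of these cells in the channel gene levels was not tested.

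Genes near the channel genes were counted to see whether a change extended along the chromosome. Within 50 kb of the 10 genes 173 neighbours were tested, and 48 of them were called between the genotypes, 22 higher and 26 lower. That is 27.7%, beside the 33.4% of all genes. Around para 6 of 14 neighbours were called, 1 higher and 5 lower. The neighbours named here were picked after their values were seen. Cnx14D, a gene inside para, was at 0.586 CPM in yw and 0.388 CPM in 12xWT, a log2 fold change of -0.63 on few counts. CG4301, 40.4 kb away, fell by 0.53 and CG34015 by 0.37 on the log2 scale, and AnxB11 rose by 0.22. Rbp2, at 0.06 kb the nearest of these neighbours outside para, was at -0.08 and not called (edgeR adjusted p = 0.148). The median log2 fold change of the 14 neighbours of para was -0.06. Around cac 7 of 21 neighbours were called, 4 higher and 3 lower, among them CG10353, which lies 44.1 kb away and fell by 1.68 on the log2 scale, from 234 to 74.1 CPM. CG6867, inside Sh, rose by 0.19 on the log2 scale while Sh fell.

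The genes whose pattern over the 10 libraries was most like that of a called channel gene were found by the root mean square difference of log2 CPM, each gene centred on its own mean. For para these were CG13954 at 0.074 and Tbh, the enzyme that makes octopamine, at 0.080, against a median of 0.359 over 11136 genes. For Shab they were CG43102 at 0.029 and Ac78C, an adenylyl cyclase, at 0.044, against a median of 0.215. For cac they were GlcAT-P at 0.037 and CG1316 at 0.040, and for Sh mei-P26 at 0.068 and ATbp at 0.073, against medians of 0.154 and 0.219. Among the 10 channel genes the closest pair was Shal and sei at 0.043, and the most distant para and cac at 0.395.

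The authors' deposited table of the genotype comparison gives para a log2 fold change of -0.63 (standard error 0.084, adjusted p = 3.22e-12), in the sense of 12xWT over yw. In the authors' deposited table Shab stands at -0.27 with an adjusted p of 0.0358 and cac at 0.14 with 0.00254, both under 0.05. Sh stands in the authors' deposited table at -0.18 with an adjusted p of 0.206, and sei at -0.08 with 0.0428, so of these 2 genes Sh passed edgeR's test on all 10 libraries and not the authors' test, and sei the reverse. The remaining 5 genes have adjusted p of 0.145 to 0.989 in the authors' deposited table.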

How the data were processed

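The data are 10 polyA RNA libraries of larval brain, grouped by the genotype and sex in the sample titles. The deposited counts are raw numbers of read pairs per gene, made by the authors with featureCounts 2.0.1 in paired-end mode and without a strand option, per the file headers, which also give each gene's exonic length on dm6. STAR 2.7.7a and DESeq2 1.34.0 are named in the submitters' processing notes. The authors' deposited table of the genotypes holds, per gene, the log2 fold change of yw over 12xWT, a standard error and an adjusted p-value; the sign was turned here. The design behind that table is not given in the sources used here.

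From the counts, edgeR 4.0.16 in R 4.3.3 was run with filterByExpr, TMM factors (0.985 to 1.02), glmQLFit with robust estimation and glmQLFTest. It tested 11146 of 16727 genes, which left out at most 0.016% of a library's counts, and all 10 channel genes passed. Genotype and sex were fitted together for the main effects, and a mean per group was fitted for effects within a sex or genotype and for the interaction. Adjustment was Benjamini-Hochberg over all genes tested, at 0.05. CPM and RPKM were computed from library totals of 52020154 to 79924240 read pairs. No library was counted as a duplicate, since replicates differed beyond sampling noise (chi-square per degree of freedom 9.50 to 29.4). The test was checked on simulated counts.

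The alternatives tried were other scalings and filters, DESeq2 1.42.0, no robust estimation, a replicate block, the compared libraries alone and leaving out each library. The 10 genes and the companion and marker lists were chosen with earlier results of these data known. All 10 genes are named in each comparison. Of the companion lists, genes that passed a test are named, largest change first and at most 4 per list and direction, and genes that did not pass were named where they are partners of a channel gene. The genes elav, pum, Adar and unc80 and the neighbours on the chromosome were named after their values were seen. Promoter and protein sequences were not analysed here.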

Additional observations from a re-analysis of the deposited data

How the results depend on the processing

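para was called in the genotype comparison under each of 18 alternatives (highest adjusted p 0.00103), and in each sex under each of 19. Of 1300 fold changes refitted under alternatives, 1197 kept their direction and side of the threshold. Most of the 70 fold changes refitted were not called to begin with, so this share says little about the calls. A call was lost in 35 refits. The genotype calls of Sh, cac and Shab held in 9, 13 and 14 of 18 alternatives. The female call of eag held in 4 of 19 and the male call of Shab in 17 of 19. Scaling by neuron marker counts shifted the median of all genes by 0.082 (log2) and the share of higher calls from 50.8% to 80.7%, and library size alone moved that share to 61.2%. With neuron scaling 1 of the 10 genes was lower, 878 genes were called in females, 1553 in males with cac higher (1 channel gene), 69 for sex and 42 for sex in yw. It turned Shal, Shaw and Ih to 0.0034, 0.025 and 0.076 for genotype, Shal and Shaw to 0.035 and 0.041 in females, Shaw, sei and Ih to 0.0082, 0.0074 and 0.014 in males, Shab, Shal, slo and Ih to 0.0060, 0.054, 0.034 and 0.036 for sex, Shal to 0.029 for sex in 12xWT, and sei and cac to 0.026 and 0.011 for the interaction. Ih was at 0.018 with library size only and 0.0079 with a filter at a mean of 1 CPM, and Shal at 0.0019 for sex without a filter. The interaction called 3 genes without a filter and 11 with DESeq2. DESeq2 called 325 genes for sex with 1 channel gene lower (Sh), 177 for sex in yw and 55 in 12xWT. The settings that ended the female call of eag included DESeq2's size factors, no filter, DESeq2, no robust estimation and the compared libraries alone. Each of these left 0 channel genes called higher in females. Fitting the compared libraries alone called 209 genes for sex in yw, with 1 channel gene higher (slo) and 1 lower (Sh), and 3 in 12xWT. The cause of these changes was not tested.

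The replicate numbers do not pair the libraries: deviations of same-numbered libraries correlated at -0.17 to 0.10 over 13 pairs, 1 of them over 0.1. In a group of 2 libraries the deviations mirror each other, so these pairs are not independent. Within 12xWT, female replicate 1 with male replicate 3 stood at 0.417, female 2 with male 1 at 0.235 and female 3 with male 2 at 0.279. The remaining 12xWT pairs with different numbers stood at -0.317, -0.254 and -0.0966. A pairing under other numbers was not tested or fitted. With a replicate block, 0 channel genes were called higher and 1, para, lower (log2 fold change -0.60, adjusted p 0.00103), 0 were higher in females, and 1527 genes were called in males, 92 for sex and 49 for sex in yw. Ih was at 0.018 for genotype, and Shaw at 0.0096 in females.

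Leaving out 1 library leaves some groups with 1 library, which is then assumed to vary like the others. Channel genes called for genotype then numbered 0 to 1 higher and 1 to 5 lower, in females 0 to 1 higher, in males 1 to 5 lower, and for sex 0 to 2 lower. Genes called were 698 to 1482 in females, 958 to 2406 in males, 44 to 197 for sex, 0 to 96 in yw, 3 to 9 in 12xWT and 0 to 3 for the interaction. Signs turned in these ranges for genotype in Ih (-0.027 to 0.025) and eag (-0.033 to 0.060), in females in Shaw (-0.068 to 0.020) and slo (-0.0015 to 0.18), for sex in Ih (-0.040 to 0.012), Shal (-0.023 to 0.015), Shaw (-0.0055 to 0.064), cac (-0.0011 to 0.053) and slo (-0.067 to 0.049), for sex in 12xWT in Shaw (-0.065 to 0.063) and cac (-0.037 to 0.062), and for the interaction in Sh (-0.13 to 0.020), cac (-0.080 to 0.020), para (-0.17 to 0.012) and sei (-0.038 to 0.033). Of the 2 genes named as most like each channel gene, 1 to 2 were kept for para and Shab and 0 to 2 for cac and Sh. With 2 libraries per yw group, small differences within a sex could not be resolved.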
